A study of Mus musculus with 8 samples.

Results

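The epithelium of the bowel was compared with that of the stomach in E16.5 mouse embryos, at a late stage of gestation, with 4 libraries on each side. The bowel side joined 2 libraries of proximal small intestine, called intestine here, with 2 of colon, and the stomach side joined 2 libraries of forestomach with 2 of hindstomach. All 8 of the 8 libraries entered, and 12894 of 23393 genes were tested, namely those with at least 1 FPKM in 2 or more libraries. FPKM, the deposited unit, counts sequenced fragments per length of transcript and per size of the library. The members of interest were the genes for which all 4 values of one organ lay above all 4 values of the other.

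Polyadenylated RNA was measured without any treatment of the animals. For work at this stage the labels' protocols name ShhCre;R26YFP/+ embryos, in which a Cre recombinase made under the control of the Shh gene, a gene active in gut epithelium, turns on a yellow fluorescent reporter from one Rosa26 allele. That genotype applies to bowel and stomach alike, and the labels give no strain, no sex and no number of embryos per library. Forestomach epithelium was peeled by hand after Dispase, whereas the other 3 epithelia were shaken free in EDTA, which was stronger for the hindstomach than for intestine and colon. Isolation method and organ therefore cannot be told apart for these libraries. The labels number 2 replicates per tissue without saying that they came from separate litters, so p-values do not extend beyond these libraries. Because a mean was fitted for each tissue, every p-value given here measures only the spread between replicates of the same tissue. The spread between the 2 tissues of an organ is not part of it. Where a library was left out, its tissue had no replicate and added nothing to the measured spread.

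The embryonic gut tube is patterned along its length by transcription factors, with Sox2 made in its anterior part, where the stomach forms, and Cdx2 in the part that becomes intestine and colon. Late in gestation the bowel epithelium builds a brush border that carries digestive enzymes and transporters. Over the same period the rodent stomach acquires a stratified squamous lining in the forestomach and glands for acid, pepsinogen and mucus in the hindstomach.

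The library labelled forestomach replicate 1 stood apart from the other 7. Its FPKM summed to 545227 against 328490 to 378497 elsewhere, and its 10 most abundant genes held 52.5% of that sum against 6.27% to 17.4%. Some glandular genes were far higher in it than in any other library, such as Pgc (pepsinogen C) at 97969.9 and 2.55 FPKM in the forestomach pair and 349 and 533 in the hindstomach pair, while others were lower than in the hindstomach, such as Cym (chymosin) at 8.49 and 2310.1 FPKM in the forestomach pair and 23524 and 29459 in the hindstomach pair. A sum over 22 pancreatic acinar genes of 71525 FPKM, against 17.1 in forestomach replicate 2 and 704 to 6064 elsewhere, came almost wholly from Clps (colipase, 71034 and 6.55 FPKM in the forestomach pair). In it 9 of these 22 genes reached 1 FPKM, against 18 to 20 in the hindstomach and bowel libraries. Squamous genes were lower in it than in forestomach replicate 2, with sums of 502 and 5796 FPKM over basal genes and 2478 and 63519 over suprabasal genes, although Krt14 was nearly level at 193 and 212. Fetal and imprinted growth genes summed to 53.8 FPKM in it against 4714 to 11161 in the other 7 libraries, and cell cycle genes to 159.5 against 460.4 to 824. The cause of these differences was not tested. Results are given with and without this library. Low values lay on steps that put the depth of intestine replicate 1, hindstomach replicate 1, forestomach replicate 1 and colon replicate 2 near 1 (0.851 to 1) and of the other 4 near 0.5 (0.427 to 0.494), relative to intestine replicate 1 and uncertain by a factor of 2, so each tissue had 1 library of each class.

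Cdh1 (E-cadherin), an epithelial gene, was present in all 8 libraries. It stood at 168 and 173 FPKM in the intestine and 197 and 206 in the colon. In the hindstomach it was at 213 and 237, and in the forestomach at 166 and 199. Epcam, another epithelial gene given below, was less even and lowest in the forestomach pair. Here and below the paired values of a tissue are those of replicate 1 and replicate 2. Hoxb13, a gene of the hindmost gut, passed 1 FPKM only in the colon pair (30.2 and 41.1), and Krt14, a basal squamous keratin, passed 2 FPKM only in the forestomach pair. Connective tissue RNA was present in every library but unevenly: 24 mesenchymal genes summed to 1078 and 2410 FPKM in the colon, 572 and 140.4 in the intestine, 318 and 512 in the hindstomach, and 5289 and 130 in the forestomach. Alpi, Apoa1, Cdh1, Cftr, Fabp2, Gata4, Gkn1, Hoxb13, Krt14, Lct, Lgr5, Lor, Muc2, Pgc, Slc9a3 and Vil1 are named in this text as familiar markers or as genes at the edge of the rule, chosen after their values were seen. In bulk samples like these, fewer cells of a type and less RNA per cell cannot be told apart.

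With all 8 libraries more genes were called higher in bowel than in stomach, while without the forestomach pair the 2 directions were nearly even (given below). All 4 bowel values exceeded all 4 stomach values in 1560 genes, 12.1% of those tested, and all 4 stomach values exceeded all 4 bowel values in 530, or 4.11%. Requiring in addition an adjusted p under 0.05 in limma, with Benjamini-Hochberg adjustment over all 12894 genes, and a difference of at least 2-fold left 746 genes called higher in bowel, 5.79%, and 255 called higher in stomach, 1.98%. A gene is written here as called only under this joint rule. Differences are bowel minus stomach on the log2(FPKM + 1) scale with the standard error of the fit, which understates the change of low genes. The median size of a called difference was 1.77 on the bowel side and 1.93 on the stomach side, and 131 bowel genes and 66 stomach genes passed 8-fold. A space between the nearest libraries of the 2 organs of at least 4-fold was found for 16 bowel genes and 31 stomach genes.

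Without the library labelled forestomach replicate 1, 12502 genes were tested, of which 904 (7.23%) were called higher in bowel and 402 (3.22%) higher in stomach. Values then did not overlap in 1745 genes (14%) higher in bowel and 1019 (8.15%) higher in stomach. Of the genes called with all 8 libraries, 709 of 746 and 228 of 255 were called again. Of the other libraries, leaving out intestine replicate 2 gave the fewest calls, 457 in bowel and 116 in stomach, and leaving out forestomach replicate 2 the most in stomach, 540. Among the gene lists described below, the count without forestomach replicate 1 was 14 of 24 for intestinal and 9 of 17 for stomach transcription factors, 13 of 17 for brush border enzymes, 18 of 31 for transporters, 14 of 23 for lipid genes, 7 of 10 for endocytic receptors and 7 of 17 for goblet cell genes. It was 11 of 20 for suprabasal and 5 of 14 for basal squamous genes in stomach. The balance of the directions depended on how libraries were scaled: bowel took 74.5% of calls in the deposited FPKM, 65.3% after median-of-ratios scaling, 63.5% after quantile normalization and 85.0% with each library set to the same FPKM total. For genes whose values did not overlap, the bowel share was 74.6% in the deposited values and 51.6%, 52.4% and 86.7% under those 3 scalings. Without both forestomach libraries 682 genes were called higher in bowel and 640 higher in stomach, a bowel share of 51.6%. Among genes without overlap the balance then turned, with 2151 higher in bowel and 2636 higher in stomach, a bowel share of 44.9%. The median difference of all genes moved from 0.07 to 0.26 with equal totals, and no gene called under one of the 3 scalings was called in the opposite direction in the deposited values. Of the genes named below, Hnf4a, Slc26a3, Spink4 and Chgb lost their calls under both median-of-ratios scaling and quantile normalization, Nr1i3 and Ccl25 under quantile normalization, and Hnf4g under median-of-ratios scaling.

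**Figure D1:**
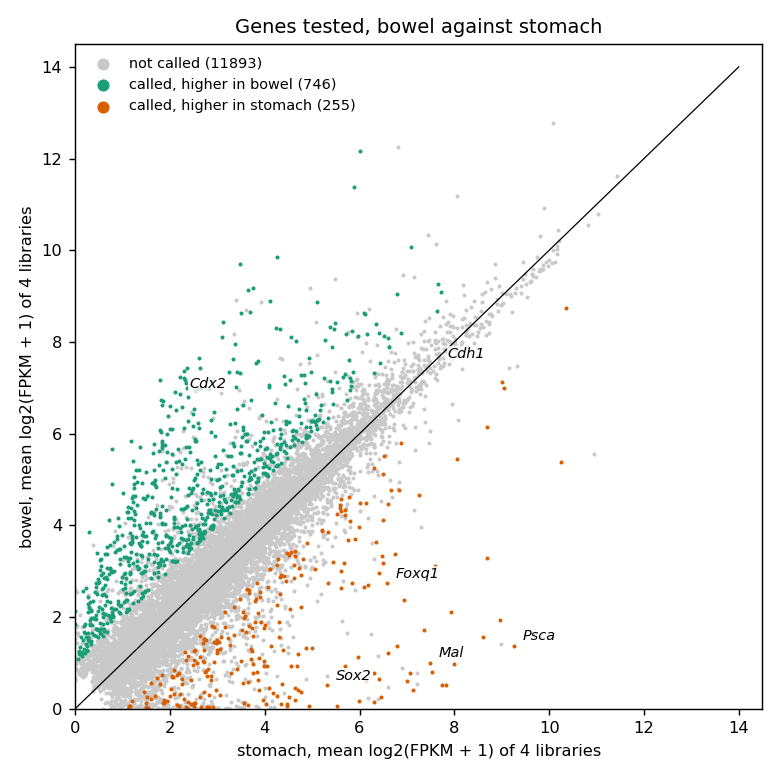
Mean log2(FPKM + 1) of the 4 bowel libraries (vertical axis) against that of the 4 stomach libraries (horizontal axis), one point per gene tested, with the line of equal level. The 746 genes called higher in bowel lie above the line and the 255 called higher in stomach below it, while Cdh1, an epithelial gene of both organs, lies close to it.

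Peptidases and other surface or secreted proteins of the bowel lining made up most of the named genes that stood furthest apart from the stomach. The 12 called bowel genes with the widest space between organs, among those averaging at least 10 FPKM in bowel, were Naaladl1, Enpep, Aoc1, Mep1a, Folr1, Guca2a, Mgam, Spink1, Hao2, Cdx1, Reg4 and Reg3b. In each of the 12 the stomach library nearest to the bowel was one of the hindstomach pair. Naaladl1, a brush border peptidase, had 41.5 and 46.5 FPKM in the intestine and 65.3 and 50.1 in the colon, against 1.26 and 2.01 in the hindstomach and 0.0637 and 0.216 in the forestomach. All 4 bowel values lay in a narrow band, and the difference was 4.89 ± 0.17 (limma adjusted p = 0.000167). Enpep, which codes for glutamyl aminopeptidase and lies at chr3:129269175-129332720 on the minus strand of GRCm38, stood at 110.0 and 94.1 FPKM in the intestine, 96.1 and 84.4 in the colon, 7.45 and 7.05 in the hindstomach and 2.52 and 0.0953 in the forestomach. Its difference was 4.59 ± 0.36 (adjusted p = 0.00114), with intestine and colon overlapping each other. Mep1a, the alpha subunit of the metalloprotease meprin at chr17:43474324-43502812 on the minus strand, was listed at 0 in both forestomach libraries and had 12.38 and 11.97 FPKM in the hindstomach, 99.9 and 117 in the intestine and 109 and 93.1 in the colon. Every bowel value of Mep1a was more than 7 times every hindstomach value, and the difference was 4.86 ± 0.12 (adjusted p = 0.000138).

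Some of the widest differences belonged to genes that were highest in the colon. Guca2a, the gene of the gut hormone guanylin, had 98.9 and 82.9 FPKM in the intestine, 222 and 223 in the colon, 13.1 and 5.74 in the hindstomach and 0.193 and 0.272 in the forestomach. The 2 colon values exceeded both intestine values, and bowel exceeded stomach by 5.37 ± 0.25 (adjusted p = 0.00024). Spink1, a secreted inhibitor of trypsin, followed the same order, with 1181 and 1024 FPKM in the colon, 567 and 677 in the intestine, 100.2 and 59.2 in the hindstomach and 1.04 and 0.212 in the forestomach. It showed the largest difference among the named bowel genes, 6.22 ± 0.25 (adjusted p = 0.000178). Folr1, a folate receptor, was by contrast higher in both intestine libraries (179 and 195 FPKM) than in both colon libraries (143 and 103), with 15.3 and 14.8 in the hindstomach and 0.825 and 0.00781 in the forestomach. Its difference was 5.02 ± 0.22 (adjusted p = 0.000229). The other members of the 12 include Aoc1 (diamine oxidase, difference 4.65 ± 0.19), Mgam (maltase-glucoamylase, 4.33 ± 0.15), Hao2 (a hydroxyacid oxidase, 4.17 ± 0.18), and the secreted lectins Reg4 (4.92 ± 0.13) and Reg3b (4.12 ± 0.26), with adjusted p from 0.000138 to 0.00056.

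On the stomach side the space is measured from the lowest stomach value. The ranking itself therefore picks genes that are high in both forestomach and hindstomach. The 12 called genes were Mal, Sprr1a, Psca, Adam28, Pga5, Cbr3, Gsta4, Sptssb, Foxq1, Fabp5, Sox21 and Psapl1. Mal, a membrane protein of apical sorting at chr2:127633226-127656695 on the minus strand, had 189 and 269.8 FPKM in the forestomach beside 129 and 151 in the hindstomach, against 0.922 and 0.289 in the intestine and 0.816 and 2.59 in the colon. Its space of 5.18 between the nearest libraries was the widest of all genes that met the rule for naming, and its difference was -6.47 ± 0.28 (adjusted p = 0.000191). Adam28, of the family of membrane metalloproteases, was nearly level across the stomach, at 17.2 and 22.4 FPKM in the forestomach beside 21.2 and 27.2 in the hindstomach, and at 0.182 and 0.0182 in the intestine and 0.256 and 0.322 in the colon. The difference was -4.26 ± 0.17 (adjusted p = 0.000174). Gsta4, a glutathione transferase, was among the most abundant, with 1419 and 1515 FPKM in the forestomach, 988 and 1026 in the hindstomach, 59.7 and 94.4 in the colon and 30.1 and 15.5 in the intestine. Both colon values exceeded both intestine values, yet the highest of them lay 3.37 below the lowest stomach value on the log2(FPKM + 1) scale, and the difference was -4.87 ± 0.26 (adjusted p = 0.000384).

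Other genes of the 12 differed strongly within the stomach. Psca, a surface protein of stomach and other epithelia, had 6704 and 1232 FPKM in the forestomach, 94.7 and 175 in the hindstomach, 0.999 and 0.0583 in the intestine and 2.29 and 5.49 in the colon. Both forestomach values exceeded both hindstomach values, and the organ difference was -7.88 ± 0.60 (adjusted p = 0.00101). Pga5, a pepsinogen, ran the other way, with 795 and 4409 FPKM in the hindstomach, 108 and 164 in the forestomach, 7.89 and 2.58 in the intestine and 3.68 and 0.459 in the colon. Its difference was -7.03 ± 0.68 (adjusted p = 0.00222). Sprr1a, a precursor of the cornified envelope, had 142 and 4187 FPKM in the forestomach, 82.4 and 81.9 in the hindstomach, 1.49 and 2.07 in the colon and 0.564 and 0.290 in the intestine. Forestomach replicate 2 was far above the other 3 stomach libraries, which lay close together, and the difference was -7.00 ± 1.00 (adjusted p = 0.00746). Fabp5, the fatty acid binding protein of squamous epithelia, showed the same single high library, at 139 and 576 FPKM in the forestomach beside 122 and 142 in the hindstomach against 8.81 and 3.61 in the intestine and 7.13 and 14.7 in the colon. Its difference was -4.48 ± 0.52 (adjusted p = 0.00409). Cbr3 (a carbonyl reductase, -4.83 ± 0.21), Sptssb (a subunit of serine palmitoyltransferase, -5.78 ± 0.84) and Psapl1 (a prosaposin-like protein, -5.47 ± 0.36) completed the set with the 2 transcription factors Foxq1 and Sox21.

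**Figure D2:**
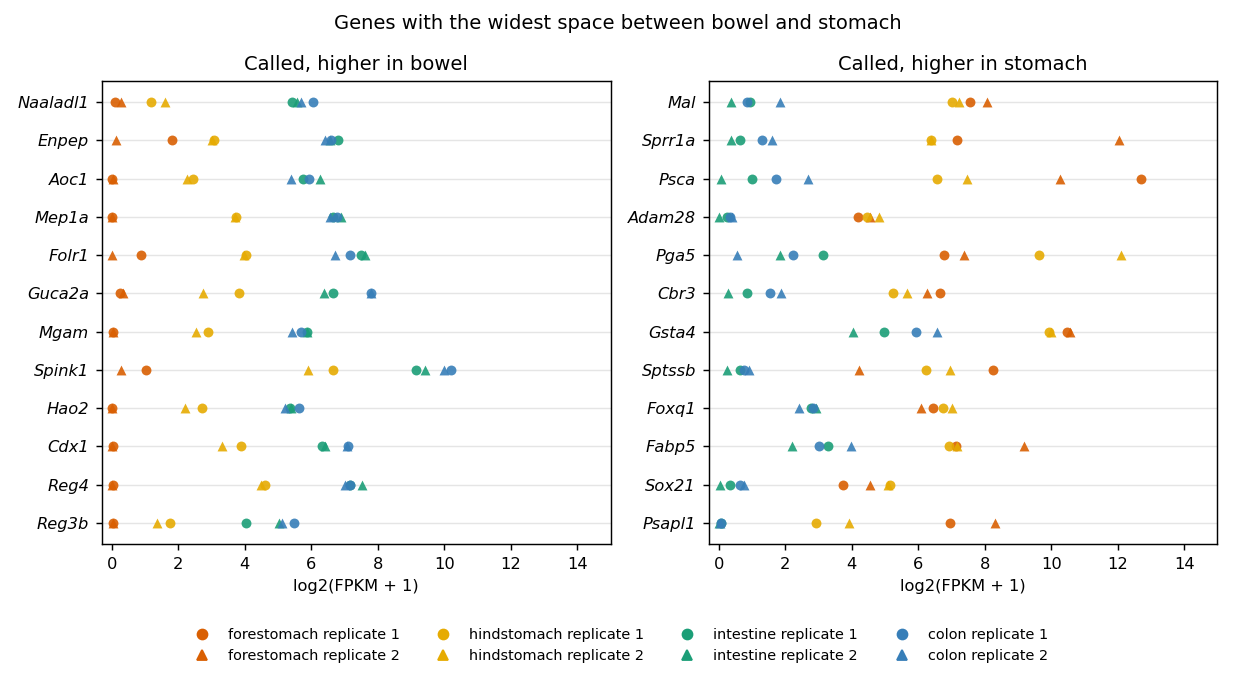
Values of the 12 called genes per direction with the widest space between organs, as log2(FPKM + 1) on the horizontal axis, one symbol per library (circles replicate 1, triangles replicate 2). Hindstomach symbols lie between forestomach and bowel in all 12 bowel genes, and forestomach replicate 2 is the highest stomach symbol for Sprr1a and Fabp5.

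Transcription factors known from the intestine were called only in bowel and those known from the stomach only in stomach when all 8 libraries were used. Without both forestomach libraries 1 intestinal factor was called higher in stomach. These lists were drawn up with earlier results of these data known. Of 24 intestinal factors tested 13 were called higher in bowel, against 5.79% of all genes. The list median difference was 1.90 against 0.07 for all genes. Cdx2, the homeobox factor that specifies intestinal fate, lies at chr5:147300805-147307270 on the minus strand and stood at 133 and 135 FPKM in the intestine, 112 and 91.1 in the colon, 24.42 and 16.55 in the hindstomach and 0.0273 and 0 in the forestomach. The hindstomach values lay between those of the forestomach and those of the bowel, and the organ difference was 4.66 ± 0.16 (adjusted p = 0.000167). Its paralog Cdx1 was higher in the colon (138 and 134 FPKM) than in the intestine (79.6 and 84.8), with 13.8 and 8.99 in the hindstomach and 0.0302 and 0 in the forestomach. The difference of Cdx1 was 4.92 ± 0.16 (adjusted p = 0.000167). Isx, an intestine-specific homeobox factor, had 74.95 and 78.38 FPKM in the intestine, 67.9 and 37.6 in the colon, 14.8 and 8.93 in the hindstomach and 0.152 and 0.220 in the forestomach. Isx differed by 4.04 ± 0.24 (adjusted p = 0.000555).

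The other called intestinal factors included nuclear receptors. Nr1h4, the bile acid receptor, had 86.9 and 98.6 FPKM in the intestine, 74.8 and 47.9 in the colon, 15.4 and 17.0 in the hindstomach and 3.07 and 0.109 in the forestomach. Nr1h4 differed by 3.64 ± 0.42 (adjusted p = 0.00393). Hnf4g, an enterocyte nuclear receptor, was at 130.2 and 130.2 FPKM in the intestine and 89.2 and 39.7 in the colon against 35.6 and 22.2 in the hindstomach and 1.73 and 0.470 in the forestomach, so that colon replicate 2 was barely above hindstomach replicate 1. The call of Hnf4g ended after median-of-ratios scaling and with organ means in place of tissue means. Its relative Hnf4a, shared by glandular stomach and bowel, was called by a small margin. It had 166 and 165 FPKM in the intestine, 149 and 104 in the colon, 63.4 and 53.8 in the hindstomach and 26.4 and 1.98 in the forestomach, with a difference of 2.64 ± 0.67 (adjusted p = 0.0468). The call of Hnf4a ended when any 1 of the 6 libraries other than the forestomach pair was left out (adjusted p 0.111 to 0.168). Leaving out either hindstomach library or intestine replicate 2 ended that of Nr1i3, a xenobiotic receptor (1.91 ± 0.31, adjusted p then 0.0533 to 0.0635). Creb3l3 (4.15 ± 0.32), Maf (2.67 ± 0.31) and Nr5a2 (2.59 ± 0.22) kept their calls with each library left out. Gata4, which both organs use, was not called at 52.6 and 53.0 FPKM in the intestine, 29.1 and 8.64 in the colon, 62.9 and 66.6 in the hindstomach and 59.0 and 2.70 in the forestomach.

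Of 20 stomach factors tested 9 were called higher in stomach, against 1.98% of all genes, with a list median of -2.18. Foxq1, a forkhead factor of gastric surface mucous cells at chr13:31556134-31560976 on the plus strand, was steady within each organ, with 86.3 and 67.4 FPKM in the forestomach beside 106 and 129 in the hindstomach against 5.82 and 6.68 in the intestine and 6.11 and 4.39 in the colon. The 4 values within each organ were within a factor of 2 of each other, and the difference was -3.83 ± 0.16 (adjusted p = 0.000191). Sox2, the foregut factor at chr3:34650405-34652461 on the plus strand, had 11.6 and 125 FPKM in the forestomach, 41.2 and 36.8 in the hindstomach, 0.345 and 0.0244 in the intestine and 0.390 and 1.14 in the colon. Its forestomach values bracketed those of the hindstomach, and the difference was -4.81 ± 0.70 (adjusted p = 0.00791). Sox21, a related factor of foregut and airway epithelium, was highest in the hindstomach (34.8 and 33.5 FPKM), at 12.4 and 22.2 in the forestomach, 0.565 and 0.715 in the colon and 0.261 and 0.0220 in the intestine. Sox21 differed by -4.19 ± 0.21 (adjusted p = 0.000325). Homeobox factors of the Iroquois family were called together: Irx5 (-2.75 ± 0.21), Irx2 (-2.62 ± 0.42) and Irx3 (-2.39 ± 0.30) were each higher in both forestomach libraries than in both hindstomach libraries and lowest in bowel, where Irx5 stood at 0.0584 and 0 FPKM in the intestine and 0.0363 and 0.00404 in the colon. The call of Irx2 ended when colon replicate 1, intestine replicate 2 or either hindstomach library was left out (adjusted p 0.0545 to 0.0593). Pitx1 (-2.50 ± 0.41) lost its call without any 1 of 5 libraries, all but colon replicate 2 and the forestomach pair (0.0513 to 0.063), while Runx1 (-1.72 ± 0.16) kept its own. Foxa1 (-2.21 ± 0.16) was no longer called with equal FPKM totals.

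**Figure D3:**
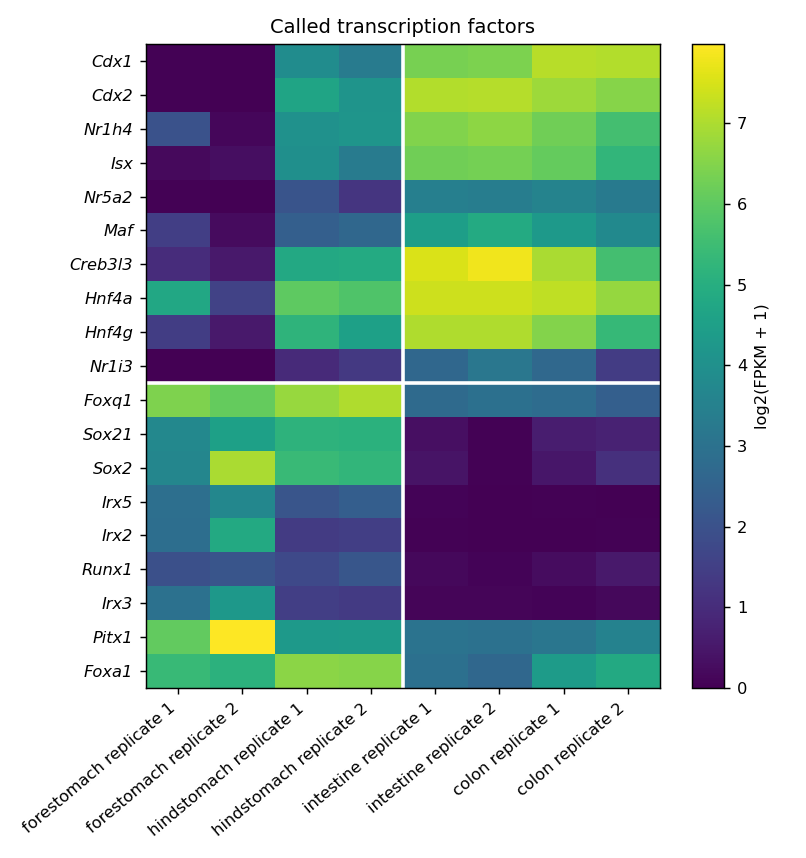
Levels of 10 intestinal factors called higher in bowel (upper block) and the 9 stomach factors called higher in stomach (lower block) in each of the 8 libraries, colored by log2(FPKM + 1). The hindstomach columns are intermediate for Cdx1, Cdx2, Isx and Hnf4g, whereas Sox2, Sox21 and the Irx genes are lowest in the bowel columns.

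Hox genes are used in staggered order along the gut. None of the 11 members of paralog groups 1 to 5 and none of the 6 of groups 6 to 8 was called, and 1 of 9 in groups 9 to 13 was called higher in bowel, against 5.79% and 1.98% of all genes in the 2 directions. With so few genes these counts do not set the Hox genes apart from the rest. That gene, Hoxd13, which marks the hindmost gut, illustrates the edge of the rule: it had 9.95 and 14.2 FPKM in the colon, 0.0200 and 0.00673 in the intestine and was listed at 0 in all 4 stomach libraries, so that a space of 0.01 separated the organs. Hoxb13, with 30.2 and 41.1 FPKM in the colon, 0.0487 and 0 in the intestine, 0.00790 and 0 in the hindstomach and 0 and 0.00813 in the forestomach, lay just outside with a space of -0.01. The calls of such genes rest on the colon pair, and without either colon library Hoxd13 was below the filter and was not tested.

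Promoter sequence was examined for letters that the factors above are known to recognize, because Cdx and Hnf4 genes were themselves called. RefSeq promoters of build GRCm38.p6 were found for 577 of the 746 bowel genes and 189 of the 255 stomach genes, and 250 bases before each start were searched on both strands. Letters of an Hnf4 site, CAAAGTCC, were present in 3.07% of 748 promoters of bowel genes, 0.42% of 238 of stomach genes, 1.29% of the promoters of genes tested and 1.2% of all 32851. Letters of a Cdx site, TTTATG, were present in 8.16%, 5.04%, 6.23% and 10.8% of the same sets, and letters of a Sox site, CATTGT, in 6.95%, 5.88%, 6.2% and 10.7%. No searched word lies within another on either strand, no test was made, and a match describes letters only. Matches in 6 of the named bowel genes are shown with neighboring bases, to let the letters be read in place, and Sox letters were also found in the promoters of the bowel gene Nr1i3, 218 bases before the start, and the stomach gene Sprr1a, 201 bases before. The 6 stretches run 5′ to 3′ on the strand of the gene, with the matched letters (or their reverse complement) in capitals.
Hao2 (Cdx letters) at chr3:98893311-98893366, minus strand: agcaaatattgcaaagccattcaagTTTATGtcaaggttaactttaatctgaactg
Aoc1 (Cdx letters) at chr6:48904736-48904784, plus strand: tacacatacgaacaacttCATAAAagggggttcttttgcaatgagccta
Reg3b (Cdx letters) at chr6:78370688-78370743, plus strand: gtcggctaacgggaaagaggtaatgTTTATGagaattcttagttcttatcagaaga
Nr1h4 (Cdx letters) at chr10:89506703-89506758, minus strand: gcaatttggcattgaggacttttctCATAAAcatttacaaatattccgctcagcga
Slc51a (Hnf4 letters) at chr16:32487925-32487982, minus strand: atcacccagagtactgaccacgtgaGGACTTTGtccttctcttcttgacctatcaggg
Muc13 (Hnf4 letters) at chr16:33794279-33794336, plus strand: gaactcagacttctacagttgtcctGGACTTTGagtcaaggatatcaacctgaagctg
The stretches of Hao2 and Slc51a lie upstream of the gene in GENCODE M21, and those of Aoc1, Reg3b, Nr1h4 and Muc13 lie within the span of the gene, before a RefSeq start further in. These genes are described above (Hao2, Aoc1, Reg3b, Nr1h4) or with the transporters and mucins below (Slc51a, Muc13).

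Enzymes at the enterocyte surface were mostly higher in bowel. Of 17 brush border peptidases and disaccharidases tested, 12 were called higher in bowel and none in stomach, against 5.79% and 1.98% of all genes. The list median difference was 3.31 against 0.07 for all genes. They include Naaladl1, Enpep, Mep1a and Mgam, described above, and Lct (lactase), which stood at 389.5 and 515 FPKM in the intestine, 300.5 and 93.6 in the colon, 49.3 and 88.1 in the hindstomach and 0.142 and 0.0644 in the forestomach. Colon replicate 2 was only just above hindstomach replicate 2 for Lct. Alpi, the intestinal alkaline phosphatase, showed the same pattern on the other side of the rule, with 406 and 552 FPKM in the intestine, 317 and 94.1 in the colon, 83.8 and 104 in the hindstomach and 0.121 and 0.0614 in the forestomach, and was not called because hindstomach replicate 2 exceeded colon replicate 2.

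Genes of the scaffold that shapes the brush border were also higher in bowel. Of 22 microvillus genes tested 14 were called higher in bowel and none in stomach, against 5.79% and 1.98% of all genes. The list median was 2.44. Ush1c, which codes for harmonin, an anchor of the links between microvilli, had 59.3 and 70.8 FPKM in the intestine, 55.5 and 42.1 in the colon, 11.6 and 11.5 in the hindstomach and 0.0458 and 0.00932 in the forestomach. Ush1c differed by 3.99 ± 0.14 (adjusted p = 0.000167). Cdh17, the intestinal cadherin, was more abundant, at 241 and 240.0 FPKM in the intestine, 194 and 142 in the colon, 41.7 and 26.4 in the hindstomach and 0.0650 and 0.156 in the forestomach. Its difference of 5.03 ± 0.19 (adjusted p = 0.000173) was called with each library left out, as were those of Myo7b, the microvillus tip myosin (4.12 ± 0.19), and Plin2, a coat protein of lipid droplets (2.94 ± 0.18). Vil1 (villin), a defining marker of intestine, had 319.9 and 374 FPKM in the intestine, 279 and 169.6 in the colon, 83.7 and 89.3 in the hindstomach and 16.9 and 1.19 in the forestomach.

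Of 31 transporters tested 15 were called higher in bowel and none in stomach, against 5.79% and 1.98% of all genes. The list median was 2.28. Slc34a2, a phosphate carrier, had 62.9 and 77.6 FPKM in the intestine, 46.1 and 22.1 in the colon, 5.49 and 5.80 in the hindstomach and 0.0633 and 3.62 in the forestomach (difference 3.66 ± 0.49, adjusted p = 0.00637). Slc51a, a subunit of the basolateral bile acid exporter, stood at 141 and 181 FPKM in the intestine, 138 and 73.4 in the colon, 22.6 and 24.4 in the hindstomach and 0.0441 and 0.112 in the forestomach (4.64 ± 0.22, adjusted p = 0.000283). Slc23a1 (a vitamin C carrier, 2.72 ± 0.23) and Slc5a11 (an inositol carrier, 3.86 ± 0.30) were also called, and in these 4 genes the lowest bowel value was that of colon replicate 2. Slc26a3, the chloride and bicarbonate exchanger of the lower bowel, was called with almost no space (0.03), at 26.7 and 34.3 FPKM in the intestine and 19.1 and 5.83 in the colon against 5.22 and 5.71 in the hindstomach and 1.23 and 0.0282 in the forestomach. Its call ended without either hindstomach library or intestine replicate 2 (adjusted p 0.0552 to 0.0561).

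Genes of lipid uptake and of lipoprotein assembly gave 11 calls in bowel among 23 tested and none in stomach. Among all genes the shares were 5.79% and 1.98%, and the median of the lipid list was 2.64. With equal FPKM totals 16 were called, and with median-of-ratios scaling 8. Mttp, which loads lipid onto lipoproteins, had 593 and 657 FPKM in the intestine, 402 and 154 in the colon, 79.8 and 75.4 in the hindstomach and 0.433 and 0.890 in the forestomach. The 2 colon libraries differed widely from each other, and the organ difference was 5.12 ± 0.31 (adjusted p = 0.00056). Tm6sf2, a further lipoprotein assembly gene, differed by 3.95 ± 0.35, and the sterol exporters Abcg5 and Abcg8 by 2.16 ± 0.25 and 1.97 ± 0.30. The call of Abcg8 ended without hindstomach replicate 1 (adjusted p 0.0537). Fabp2, the intestinal fatty acid binding protein and a defining marker, stood at 3502 and 5809 FPKM in the intestine, 2969.9 and 828 in the colon, 651 and 775 in the hindstomach and 12.8 and 0.706 in the forestomach, with a space of 0.10. Apoa1, the main protein of high density lipoprotein, was not called (adjusted p = 0.22), at 3339 and 4565 FPKM in the intestine, 2361 and 832 in the colon, 635 and 756 in the hindstomach and 1168 and 8.05 in the forestomach, where replicate 1 is the library that stood apart.

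Genes listed with the receptors for protein uptake, a feature of fetal and suckling enterocytes, were called in bowel in 6 of 10 cases. None was called in stomach, and the median was 2.14, while 5.79% of all genes were called in bowel and 1.98% in stomach. The list includes genes that are not receptors, such as Neu1 and Dab2, given below. Cubn (cubilin) had 22.6 and 25.6 FPKM in the intestine, 20.8 and 13.6 in the colon, 2.41 and 5.26 in the hindstomach and 0.0212 and 0.00120 in the forestomach (difference 3.29 ± 0.25, adjusted p = 0.000968). Its membrane partner Amn (amnionless) had 148 and 163 FPKM in the intestine, 118 and 69.9 in the colon, 14.8 and 15.4 in the hindstomach and 0.120 and 0.160 in the forestomach (4.81 ± 0.19, adjusted p = 0.000174). Both genes were higher in intestine than in colon. The lysosomal sialidase Neu1 differed by 2.97 ± 0.43 and the adaptor Dab2 by 2.27 ± 0.47, and the call of Dab2 ended without any 1 of the 6 libraries other than the forestomach pair (adjusted p 0.0863 to 0.102). Lrp2 (megalin), a large endocytic receptor, was low throughout, at 4.43 and 3.39 FPKM in the intestine and 2.48 and 1.95 in the colon, and differed by 1.61 ± 0.22.

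In the guanylin pathway a peptide hormone raises cyclic GMP in enterocytes and drives fluid secretion. A list named for this pathway gave 5 calls in bowel among 7 genes, against 5.79% of all genes, with a median of 4.65. The calls include Aoc1 (diamine oxidase), described above, which is not part of the pathway. The ligand genes were Guca2a, given above, and Guca2b (uroguanylin), which had 108 and 199 FPKM in the intestine, 98.7 and 42.9 in the colon, 7.66 and 11.2 in the hindstomach and 0.284 and 0.165 in the forestomach. Whereas Guca2a was higher in the colon pair, both colon values of Guca2b lay below both intestine values, and its difference was 4.80 ± 0.33 (adjusted p = 0.000709). Gucy2c, their receptor, had 155 and 157 FPKM in the intestine, 137 and 108 in the colon, 22.6 and 16.6 in the hindstomach and 0.345 and 0.199 in the forestomach. The difference of Gucy2c was 4.77 ± 0.15 (adjusted p = 0.000167). Cftr and Slc9a3, channel and exchanger targets of the pathway, were not called (adjusted p = 0.0533 and, with values that overlapped, 0.0111).

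Goblet cell genes gave 6 calls in bowel among 17 tested and none in stomach, against 5.79% and 1.98% of all genes. Their median was 2.35. Tff3, the trefoil peptide of goblet cells, had 1382 and 1667 FPKM in the colon, 573 and 546 in the intestine, 227 and 137 in the hindstomach and 1.36 and 0.764 in the forestomach. Tff3 differed by 5.60 ± 0.21 (adjusted p = 0.000173). Muc13, a membrane mucin, was instead higher in the intestine, at 709 and 839 FPKM against 556 and 333 in the colon, 121 and 107 in the hindstomach and 1.37 and 0.0826 in the forestomach (5.41 ± 0.30, adjusted p = 0.000431). Clca1 (4.31 ± 0.67) and Spink4 (4.06 ± 1.04), both secreted by goblet cells, were higher in colon than in intestine. The call of Clca1 ended without hindstomach replicate 2 (adjusted p 0.0552) and that of Spink4 without any 1 of the 6 libraries other than the forestomach pair (0.134 to 0.175). Muc2, the gel-forming mucin, missed the rule of no overlap by a small margin (-0.01), with 36.6 and 47.6 FPKM in the colon, 2.37 and 6.40 in the intestine, 1.344 and 2.403 in the hindstomach and 0.242 and 0.0604 in the forestomach. Hindstomach replicate 2 lay just above intestine replicate 1.

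Hormone genes of enteroendocrine cells were called in bowel in 4 of 19 cases, against 5.79% of all genes, with a median of 0.73. Sct (secretin) had 104 and 101 FPKM in the intestine, 89.6 and 74.0 in the colon, 29.3 and 24.4 in the hindstomach and 0.330 and 0.0336 in the forestomach (4.02 ± 0.15, adjusted p = 0.000173). Nts (neurotensin) was lower, with a wider space between the organs (1.77 against 1.31), at 3.28 and 5.92 FPKM in the intestine, 6.76 and 4.50 in the colon, 0.0964 and 0.148 in the hindstomach and 0.255 and 0 in the forestomach (2.41 ± 0.23, adjusted p = 0.00206). Gip (3.30 ± 0.31) was also called, and Chgb (2.53 ± 0.64) was called only while all 6 libraries other than the forestomach pair were kept (adjusted p 0.11 to 0.168 without one of them). Gast (gastrin), a stomach hormone, was not called (adjusted p = 0.0512), at 10.7 and 15.3 FPKM in the hindstomach, 0 and 2.65 in the forestomach, 0.754 and 0.908 in the intestine and 0.796 and 0.0422 in the colon.

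Detoxification genes were called in both directions, 7 of 29 higher in bowel and 2 higher in stomach, against 5.79% and 1.98% of all genes. Export pumps led the bowel calls: Abcb1a (difference 2.36 ± 0.20), Abcc2 (3.39 ± 0.21) and Abcg2 (2.49 ± 0.19), with Abcc2 at 24.1 and 22.0 FPKM in the intestine, 15.5 and 8.40 in the colon, 1.80 and 1.61 in the hindstomach and 0.00723 and 0.00630 in the forestomach. The 2 genes higher in stomach were the glutathione transferases Gsta4, given above, and Gsta1, at 443 and 40.3 FPKM in the forestomach, 6.12 and 7.15 in the hindstomach, 2.52 and 1.33 in the intestine and 0.858 and 1.55 in the colon (-3.69 ± 0.72, adjusted p = 0.0209). The call of Gsta1, one of a family of near-identical genes that may share reads, ended without any 1 of the 6 libraries other than the forestomach pair (0.0652 to 0.0944).

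Mucous genes of the glandular stomach gave calls in stomach only, although forestomach replicate 2 held little of many of them. Of 20 pit and mucous genes tested 8 were called higher in stomach and none in bowel, against 1.98% and 5.79% of all genes. The list median was -4.39, and without the library labelled forestomach replicate 1 the count in stomach was 11 of 19. Cldn18, the stomach claudin, had 337 and 339 FPKM in the hindstomach, 175 and 14.9 in the forestomach, 2.70 and 0.210 in the intestine and 0.716 and 0.146 in the colon. Cldn18 differed by -6.28 ± 0.79 (adjusted p = 0.00529). Gsdmc2, a gasdermin with close paralogs, had 119 and 211 FPKM in the hindstomach, 17.2 and 14.6 in the forestomach, 1.13 and 0.216 in the intestine and 1.30 and 1.20 in the colon (-4.77 ± 0.26, adjusted p = 0.000431). Both genes were higher in both hindstomach libraries than in forestomach replicate 2, which was still above every bowel library. Anxa10, an annexin of gastric epithelium, differed by -6.71 ± 1.11, and its call ended without colon replicate 1, intestine replicate 2 or either hindstomach library (adjusted p 0.0563 to 0.062). Gkn1 (gastrokine) was not called: it stood at 37.3 and 84.4 FPKM in the hindstomach, 27487 and 0.0143 in the forestomach, 0.853 and 0.0668 in the intestine and 0.209 and 0.559 in the colon, and forestomach replicate 2 lay below the bowel.

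Genes of digestion and acid secretion were called in stomach only, against 1.98% of all genes in that direction. There were 2 calls among 8 genes of zymogens and digestion and 4 among 14 parietal genes. Without the library labelled forestomach replicate 1 these counts were 5 of 8 and 5 of 13, with 1 parietal gene called higher in bowel. With all 8 libraries the 2 calls of the first list were Pga5, a pepsinogen given above, and Bpifb1, not itself a zymogen. Bpifb1, a secreted protein of the lipid transfer family, had 1219 and 2099.8 FPKM in the hindstomach, 57.7 and 154 in the forestomach, 10.2 and 0.452 in the intestine and 2.62 and 0.276 in the colon (-7.05 ± 0.75, adjusted p = 0.00314). Atp4b, a subunit of the acid pump, had 218 and 435 FPKM in the hindstomach, 2326 and 11.2 in the forestomach, 2.18 and 0.0378 in the intestine and 0.210 and 0.0439 in the colon. Its difference of -7.32 ± 1.59 (adjusted p = 0.0292) and that of the catalytic subunit Atp4a, -6.39 ± 1.58 (0.0444), lost their calls without any 1 of the 6 libraries other than the forestomach pair (adjusted p 0.0831 to 0.121 and 0.117 to 0.165). The potassium channel Kcnj15 (-4.44 ± 0.70) and the chloride channel Slc26a9 (-3.63 ± 0.57) were called too, and both calls ended without colon replicate 1, intestine replicate 2 or hindstomach replicate 2 (0.0522 to 0.057, also without hindstomach replicate 1, and 0.05 to 0.057). Cym (chymosin), the milk-clotting protease, was not called because forestomach replicate 1 lay under 3 bowel libraries, at 23524 and 29459 FPKM in the hindstomach, 8.49 and 2310.1 in the forestomach, 266 and 67.1 in the intestine and 86.0 and 2.17 in the colon.

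Squamous genes were called in stomach although only the forestomach bears a squamous lining. Of 27 suprabasal genes tested 8 were called higher in stomach and none in bowel, against 1.98% and 5.79% of all genes. The list median was -3.39. Krt13, a keratin of stratified epithelium, had 233 and 15454 FPKM in the forestomach, 91.8 and 5.33 in the hindstomach, 0.222 and 0.321 in the intestine and 1.38 and 0.0746 in the colon. Both hindstomach values were under both forestomach values and above every bowel value, and the difference was -7.23 ± 1.48 (adjusted p = 0.024). Krt4, its keratin partner (-6.72 ± 1.60), and Cnfn, of the cornified envelope (-6.14 ± 1.05), followed the same order. All 3 calls ended without any 1 of the 6 libraries other than the forestomach pair (adjusted p 0.0525 to 0.091 for Krt13, 0.0713 to 0.131 for Krt4 and 0.0504 to 0.0667 for Cnfn). Lor (loricrin), which stayed under 1 FPKM in the hindstomach, was not called. It had 320.1 and 3029 FPKM in the forestomach, 0.848 and 0.425 in the hindstomach, 0.130 and 0.282 in the intestine and 1.20 and 1.35 in the colon.

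Basal squamous genes gave 2 calls in stomach and 1 in bowel among 16 tested, against 1.98% and 5.79% of all genes. With so few genes these counts do not set the list apart from the rest. Krt5, the basal keratin, had 167 and 2574 FPKM in the forestomach, 19.5 and 0.823 in the hindstomach, 0.0679 and 0.0534 in the intestine and 0.303 and 0.0886 in the colon. Krt5 differed by -5.82 ± 1.07 (adjusted p = 0.0174), and its call ended without any 1 of 5 libraries, all but hindstomach replicate 2 and the forestomach pair (0.0587 to 0.0755). Lamb3, a chain of the basement membrane protein laminin-332, differed by -1.98 ± 0.19 with a space of 0.04, and was not called with equal FPKM totals. The bowel call was Itga3, an integrin that binds laminin, at 56.0 and 61.8 FPKM in the intestine, 57.0 and 47.8 in the colon, 23.7 and 29.9 in the hindstomach and 17.7 and 12.8 in the forestomach (1.42 ± 0.16, adjusted p = 0.00385).

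Cell junction genes were called in both directions, more of them in bowel. Among 23 claudin and tight junction genes 5 were called higher in bowel and 1, Cldn18, higher in stomach, against 5.79% and 1.98% of all genes. Cldn3 had 116 and 156 FPKM in the colon, 62.3 and 64.1 in the intestine, 36.4 and 28.4 in the hindstomach and 0.539 and 6.86 in the forestomach. Cldn3 differed by 3.12 ± 0.50 (adjusted p = 0.011), and its call ended without intestine replicate 2 or either hindstomach library (0.0522 to 0.061). Marveld3 (1.62 ± 0.22), a tight junction membrane protein, kept its call with each library left out. Of 21 genes used by epithelia in general 1 was called, Epcam, an adhesion protein, at 559.7 and 564 FPKM in the intestine, 557 and 511 in the colon, 427 and 374 in the hindstomach and 83.2 and 146 in the forestomach (1.38 ± 0.22, adjusted p = 0.0103). The hindstomach lay closer to the bowel than to the forestomach, and the call of Epcam ended without any 1 of 5 libraries, all but colon replicate 2 and the forestomach pair (0.0531 to 0.0641). Without both forestomach libraries 4 of the 21 were called higher in stomach, and 13 lay wholly above the bowel.

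The Hedgehog, Wnt, Bmp and stem cell lists gave 4 calls, all higher in stomach, with too few genes in each list to set it apart from all genes (5.79% called in bowel and 1.98% in stomach). No gene was called among 12 of the Hedgehog pathway, which relays epithelial signals to the mesenchyme. One of 15 Wnt ligands and antagonists was called higher in stomach, Wnt4, at 15.6 and 268 FPKM in the forestomach, 10.6 and 13.4 in the hindstomach, 1.14 and 0.561 in the intestine and 1.51 and 3.60 in the colon (-3.56 ± 0.85, adjusted p = 0.0393), with the call ending without any 1 of the 6 libraries other than the forestomach pair (0.093 to 0.15). Of 15 genes of the Bmp and Tgfb pathway 1 was called higher in stomach, Id1, an inhibitor of basic helix-loop-helix factors, at 169 and 64.3 FPKM in the forestomach, 99.6 and 148 in the hindstomach, 24.4 and 19.7 in the intestine and 28.5 and 34.0 in the colon. It differed by -2.06 ± 0.33 (adjusted p = 0.0108), and the call ended without colon replicate 1, hindstomach replicate 2 or intestine replicate 2 (0.0575 to 0.059). Among 16 stem cell genes and Wnt targets 2 were called, both higher in stomach although the list is named for the intestine: Ephb3, an ephrin receptor (-1.93 ± 0.36), and Tnfrsf19, a receptor also known as Troy (-1.51 ± 0.36). Neither was called with equal FPKM totals, and both calls ended without each of several single libraries (adjusted p 0.0641 to 0.0875 and 0.0746 to 0.149), those without a forestomach library not among them. Lgr5, the stem cell receptor, was not called, at 3.61 and 4.36 FPKM in the hindstomach, 2.74 and 2.18 in the colon, 1.39 and 1.62 in the intestine and 0.339 and 0.304 in the forestomach.

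Lists of other cells and states gave at most 2 calls each, too few to set them apart from all genes (5.79% in bowel and 1.98% in stomach). None of 25 cell cycle genes and none of 23 mesenchymal genes was called, and their list medians were 0.45 and 0.60. Without forestomach replicate 1 these medians were 0.08 and 1.64, and 1 of 22 mesenchymal genes was called higher in bowel, Mylk, a myosin kinase of smooth muscle, at 35.5 and 31.0 FPKM in the intestine, 41.9 and 53.7 in the colon, 9.37 and 14.3 in the hindstomach and 66.5 and 1.01 in the forestomach. The mesenchymal list summed to 5289 FPKM in forestomach replicate 1 and 129.7 to 2409.9 in the other 7. None of 20 pancreatic acinar genes was called. Of 13 genes of enteric neurons and glia 1 was called higher in bowel, Ret, the receptor of neural crest growth factors (1.82 ± 0.28), and of 10 endothelial and blood genes 1, Csf1r, a receptor of macrophages (2.24 ± 0.47). Ret stood at 6.34 and 5.71 FPKM in the intestine, 6.48 and 9.43 in the colon, 2.28 and 1.48 in the hindstomach and 1.53 and 0.191 in the forestomach. Its call ended without hindstomach replicate 2 or either intestine library (adjusted p 0.0521 to 0.0575), and that of Csf1r without any 1 of the 6 libraries other than the forestomach pair (0.0791 to 0.111). Tbx3, a T-box factor from a list of regional mesenchymal factors, was called higher in bowel (2.19 ± 0.31). Of 15 immediate early and heat shock genes, which respond to handling of tissue, 2 were called higher in stomach, Fos and Ier3. Fos had 36.3 and 15.9 FPKM in the forestomach, 14.4 and 27.9 in the hindstomach, 2.24 and 2.06 in the intestine and 3.57 and 8.15 in the colon (-2.35 ± 0.38, adjusted p = 0.0109), with the call ending without hindstomach replicate 2 or intestine replicate 2 (0.0546 to 0.0549). Ier3 differed by -1.42 ± 0.18. Organ and isolation method cannot be told apart for these genes.

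Smaller lists added few genes each, too few to set them apart from all genes (5.79% called in bowel and 1.98% in stomach). Of 18 colonocyte genes 2 were called higher in bowel, Ceacam20, an adhesion protein of the microvillus (1.91 ± 0.25), and Slc26a3, given above, and 1 higher in stomach, Scnn1g, a subunit of the epithelial sodium channel. Scnn1g was low in all libraries, at 1.38 and 2.74 FPKM in the forestomach, 2.27 and 3.08 in the hindstomach, 1.18 and 1.13 in the colon and 0.152 and 0.184 in the intestine. Its difference of -1.06 ± 0.20 was not called with equal FPKM totals or without any 1 of the 7 libraries other than forestomach replicate 1 (adjusted p 0.00583 to 0.0939, with the difference under 2-fold in the lowest case). Of 16 fetal and imprinted growth genes 2 were called higher in bowel, beside a summed level of the list of 53.8 FPKM in forestomach replicate 1 and 4714 to 11161 in the other 7 libraries. They were Igf2r, a receptor that clears the growth factor Igf2, at 64.0 and 69.5 FPKM in the intestine, 63.2 and 56.6 in the colon, 27.2 and 37.0 in the hindstomach and 7.88 and 16.4 in the forestomach (1.67 ± 0.24, adjusted p = 0.00783), and Cdkn1c, a cell cycle inhibitor, at 461 and 525 FPKM in the intestine, 352 and 279 in the colon, 191 and 168 in the hindstomach and 8.99 and 71.8 in the forestomach (2.50 ± 0.60), whose call ended without any 1 of the 6 libraries other than the forestomach pair (0.104 to 0.149). Of 15 mucosal and antigen presentation genes 2 were called higher in bowel, Reg3b, given above, and Ccl25, a chemokine of the small intestine, at 22.1 and 28.6 FPKM in the intestine, 16.3 and 4.57 in the colon, 3.77 and 3.23 in the hindstomach and 0.323 and 0.166 in the forestomach (2.76 ± 0.36, adjusted p = 0.00605). The 1 call among 12 retinoid genes was Stra6l, a retinol transporter relative (2.38 ± 0.30), and that among 12 liver and yolk sac genes was Amn, which enterocytes also use.

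Some genes were called once the library labelled forestomach replicate 1 was left out, with 4 bowel libraries against 3 of stomach. The other forestomach library then stood alone, so these p-values measure no spread within the forestomach. Nrn1 (neuritin) had 75.8 and 73.0 FPKM in the intestine, 88.1 and 83.5 in the colon, 12.5 and 7.56 in the hindstomach and 23.7 and 0.122 in the forestomach, and its adjusted p went from 0.0556 to 0.000151. Forestomach replicate 1 was its highest stomach value. Gif, the intrinsic factor that binds vitamin B12, had 86.6 and 134 FPKM in the hindstomach, 985 and 3.25 in the forestomach, 0.527 and 0 in the intestine and 0.204 and 0.0126 in the colon, and its adjusted p went from 0.0515 to 0.000269. Krt15, a basal keratin, had 11.1 and 2376 FPKM in the forestomach, 59.5 and 18.0 in the hindstomach, 0.874 and 0.539 in the intestine and 3.47 and 6.32 in the colon, and went from 0.111 to 0.00044. Lypd2 (0.870 and 262 FPKM in the forestomach beside 19.9 and 18.2 in the hindstomach) went from 0.123 to 7.02e-05. The epithelial splicing factors Esrp1 and Esrp2 were called higher in stomach without that library (adjusted p = 0.000493 and 0.00085), with 16.6 and 80.0 FPKM for Esrp1 in the forestomach, 35.4 and 36.1 in the hindstomach, 12.9 and 11.9 in the intestine and 25.1 and 30.8 in the colon. Ckb, a creatine kinase, was called higher in bowel (0.295 to 0.000246), at 269 and 313 FPKM in the intestine, 191 and 139.9 in the colon, 55.4 and 45.2 in the hindstomach and 435 and 16.1 in the forestomach, where replicate 1 exceeded every bowel library.

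**Figure D4:**
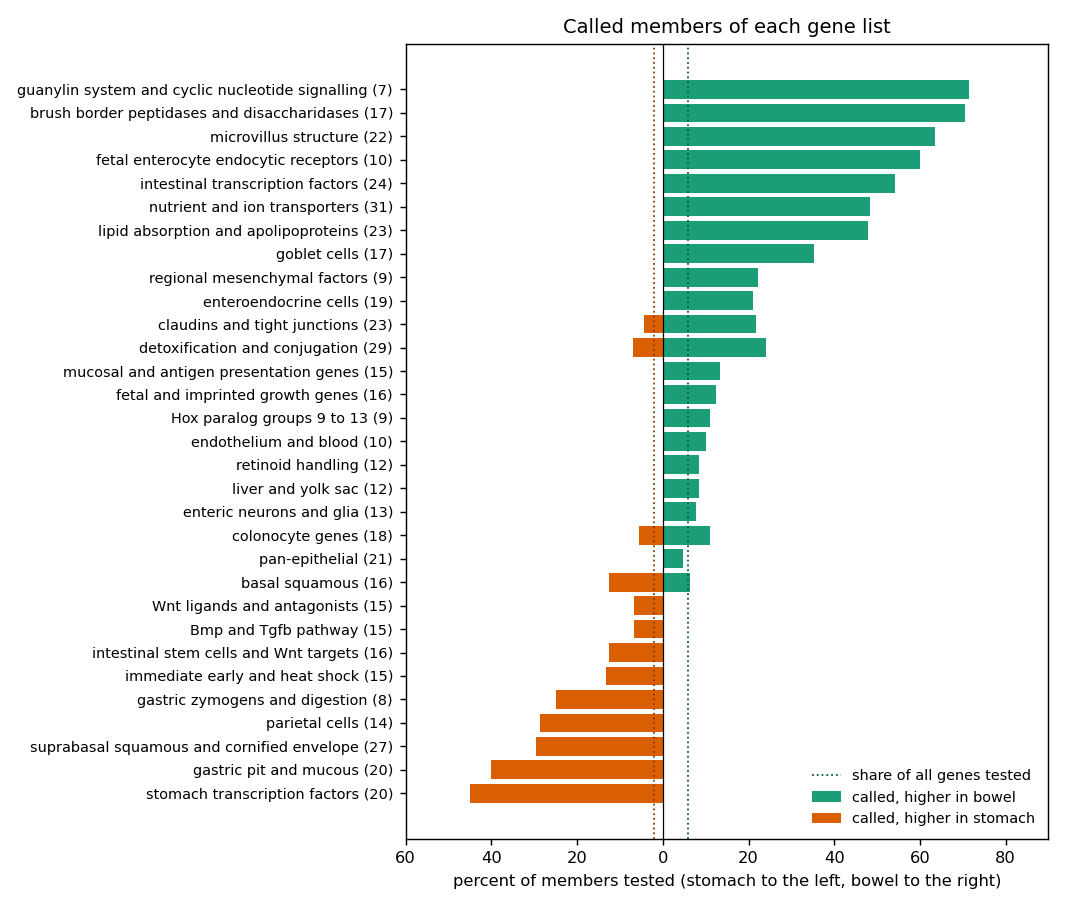
Percent of each gene list's tested members that were called, higher in bowel to the right and higher in stomach to the left, with the number tested in brackets and the share of all genes tested as dotted lines (5.79% and 1.98%). Lists of enterocyte function extend furthest to the right and the stomach transcription factors and mucous genes furthest to the left, and lists without any call are not drawn.

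Which library limited the space between the organs was uneven. For the 746 genes called higher in bowel, the highest stomach value came from hindstomach replicate 1 in 360 cases and replicate 2 in 294, and from forestomach replicate 1 in 58 and replicate 2 in 34, and the lowest bowel value came from colon replicate 2 in 607 cases, 81.4%. For the 255 genes called higher in stomach, the highest bowel value came from colon replicate 2 in 193 cases, 75.7%, while the lowest stomach value was spread over hindstomach replicate 1 (102), forestomach replicate 2 (67), hindstomach replicate 2 (46) and forestomach replicate 1 (40). Colon replicate 2 thus lay nearest to the other organ in both directions. It was also the bowel library with the highest sum of mesenchymal genes, 2410 FPKM, and of neural genes, 194 FPKM against 14.7 to 64.5 in the other 3, and the part of these in its position was not tested.

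Within each organ the called genes were ordered by tissue. These shares describe genes that the same values selected, and no test was made. Both hindstomach values exceeded both forestomach values in 605 of the 746 bowel genes, 81.1%, against 47.5% of all genes tested, and both intestine values exceeded both colon values in 519, 69.6%, against 18.9% of all. Both colon values exceeded both intestine values in 95, 12.7%, against 57.6% of all genes tested. For the stomach genes both forestomach values exceeded both hindstomach values in 117 of 255, 45.9%, against 8.93% of all genes, and both colon values exceeded both intestine values in 192, 75.3%. In median, the bowel genes stood at 111% and 124% of the bowel mean in the intestine, 96.7% and 66.6% in the colon, 30.9% and 30.0% in the hindstomach and 13.5% and 8.04% in the forestomach. The stomach genes stood at 98.6% and 116% of the stomach mean in the forestomach, 69.7% and 83.3% in the hindstomach, 14.9% and 25.5% in the colon and 7.47% and 4.34% in the intestine. In these medians of the stomach genes the colon lay nearer to the stomach than the intestine did. Both colon values also exceeded both intestine values in 57.6% of all genes tested. The factors of median-of-ratios scaling were likewise higher for both colon libraries than for both intestine libraries. The part of this library-wide difference in the position of the colon was not tested.

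For many bowel genes the hindstomach held a like share of the intestinal level. Among the 112 called bowel genes with under 1 FPKM in both forestomach libraries and at least 10 FPKM in intestine, the hindstomach mean was 14.4% of the intestine mean in median, with quartiles of 12.3% and 17.2% and a range of 3.72% to 54.2%. Cdx2 and Mep1a, given above, are of this kind. Whether intestinal tissue was carried into the hindstomach preparation was not tested.

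**Figure D5:**
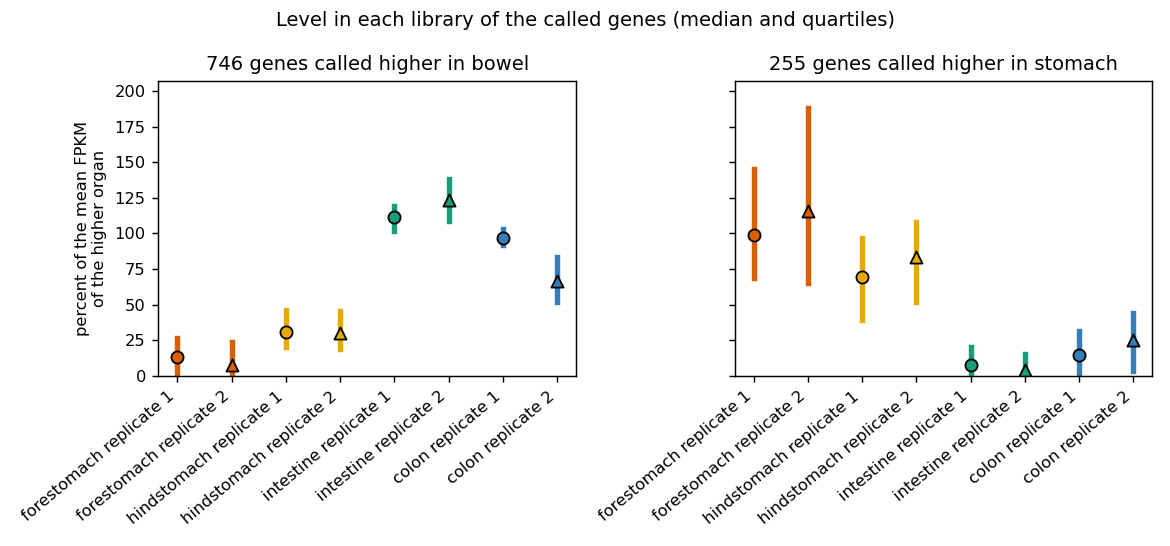
Level of called genes in each library as a percent of the mean FPKM of the organ in which they were higher, with the median (symbols) and quartiles (bars) over 746 bowel genes (left) and 255 stomach genes (right). Hindstomach libraries sit near 30% of the bowel mean for bowel genes, above both forestomach libraries, and colon replicate 2 is the lowest bowel library for bowel genes and the highest for stomach genes.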

How the data were processed

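RNA sequencing of the 8 libraries was deposited as 1 table of FPKM per gene. Reads were aligned with STAR 2.4.2a to mm10 (GRCm38), per the submitters' processing notes, with the program, annotation and strand setting behind the FPKM each not given in the sources used here. The authors deposited FPKM already scaled by library and transcript length, so no count test could be used, and the depth is known only as a ratio between libraries from the steps of low values. A further 4 value columns of the table matched no sample and were not used.

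FPKM values were tested as log2(FPKM + 1), a pseudocount of 1 that understates the change of low genes, with limma 3.58.1 in R 4.3.3. Genes with at least 1 FPKM in 2 libraries were kept, and 4 tissue means were fitted with a trended prior. The mean of forestomach and hindstomach was subtracted from the mean of intestine and colon, and p-values were adjusted over all genes by Benjamini-Hochberg. A gene was called at an adjusted p under 0.05, a difference of at least 2-fold and no overlap of the 4 against 4 values. The code was tested on simulated data. The members and gene lists were chosen with earlier results of these data known.

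Genes were named by rule: the 12 per direction with the widest space between organs among called genes of at least 10 FPKM in the higher organ, up to 4 called members per list by the same measure, members called against their list's organ, all called members of the transcription factor lists, the same without the library labelled forestomach replicate 1, and defining markers as values only. Some genes that met this rule are not reported here. Gene positions came from GENCODE M21 (GRCm38) and promoters from RefSeq (GRCm38.p6). Alternatives covered the pseudocount, the filter, 3 scalings, organ means in place of tissue means, a depth class term, a block for the replicate number and the omission of each library.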

Additional observations from a re-analysis of the deposited data

Results flagged for a closer look

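The library labelled forestomach replicate 1 lay far from the other 3 stomach libraries in its FPKM total, about 545200 rounded to 4 digits, and in the share held by its 10 most abundant genes, 52.54%. Forestomach replicate 2 lay far above the other 3 stomach libraries for 2 named genes, Sprr1a at 12.03 and Fabp5 at 9.172 on the log2(FPKM + 1) scale. Each was picked out because its gap to the nearest library exceeded Dixon's 95% critical value for 4 values. Chance alone picks out about 1 in 20 groups, 52 groups of 4 were examined, and each group joined 2 tissues.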

How the results depend on the processing

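Of the 110 named genes called, 107 could be tested under all 21 alternatives, of which 52 stayed called, and 109 with each library left out in turn, of which 74 stayed called. None changed direction where tested. The counts of calls were 528 in all, 399 in bowel and 129 in stomach with organ means in place of tissue means, and 605, 477 and 128 with a pseudocount of 5. With overlap allowed 430 genes were called higher in stomach, and without both forestomach libraries 640. Genes without overlap numbered 4787 in all and 2636 in stomach without both forestomach libraries, and in stomach 1018 by median of ratios, 1042 by quantiles and 323 by equal totals. The median difference of all genes was 0.0041 without the filter, 0.0078 by median of ratios, -0.0056 by quantiles, 0.26 by equal totals and -0.11 without both forestomach libraries.

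Leaving out 1 library gave 573 (intestine replicate 2) to 1424 (forestomach replicate 2) calls in all, with 651 without colon replicate 1 and 631 without hindstomach replicate 2. The range was 457 to 904 in bowel and 116 to 540 in stomach. Genes without overlap ranged from 2116 to 3484 in all, 1561 to 2213 in bowel and 538 to 1271 in stomach, and the median difference from 0.0088 to 0.134. Among genes not called, Rspo1 had -0.22 without forestomach replicate 2 and 1.16 without replicate 1, and Cd74 had -0.147 with a pseudocount of 5 and -1.26 without forestomach replicate 2, but 1.98 without replicate 1. The cause was not tested.

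Correlations of the replicates' deviations between tissues ran from -0.578 to 0.270, with 2 of 6 over 0.1. With 2 libraries per tissue they cannot settle whether replicate numbers pair the samples. With the replicate block 925 genes were called, 693 in bowel and 232 in stomach. Depth is known only as a ratio, so low values carry no interval.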

Other observations

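Gene groups outside the lists of the report were drawn up after the values were seen, so their counts are a description. Of 42 lysosomal genes 19 were called higher in bowel and none in stomach, against 5.79% and 1.98% of all genes. Their median difference was 1.01, and after median-of-ratios scaling the counts were 15 and 1. Slc17a5, the lysosomal exporter of sialic acid, had 227 and 318 FPKM in the intestine, 194 and 95.8 in the colon, 35.0 and 42.2 in the hindstomach and 4.60 and 4.03 in the forestomach, a difference of 3.73 ± 0.26 (limma adjusted p = 0.000709). Both intestine values exceeded both colon values. Ctsa, the protective protein of the sialidase Neu1, had 196 and 229 FPKM in the intestine, 169 and 91.9 in the colon, 41.2 and 46.5 in the hindstomach and 24.1 and 18.5 in the forestomach (2.38 ± 0.23, adjusted p = 0.00215). Of 10 Naip and inflammasome genes 5 were called higher in bowel, against 5.79% of all genes. Among them was Naip1, at 24.2 and 26.8 FPKM in the intestine, 17.3 and 10.2 in the colon, 3.38 and 3.43 in the hindstomach and 0.0527 and 0.00335 in the forestomach. The Naip genes are near-identical copies among which reads may be split.

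Enzymes of glutathione, carbonyl and redox metabolism ran the other way, with 8 of 19 called higher in stomach and 1 in bowel. The shares of all genes were 1.98% and 5.79%, and the median of the group was -1.45. Gsto1, a glutathione transferase, had 849 and 854 FPKM in the forestomach, 298 and 359 in the hindstomach, 142 and 162 in the intestine and 129 and 86.3 in the colon (-2.05 ± 0.18, adjusted p = 0.00175). Ephx1, an epoxide hydrolase, had 29.0 and 18.3 FPKM in the forestomach, 7.78 and 11.3 in the hindstomach, 0.640 and 0.197 in the intestine and 1.23 and 1.99 in the colon (-3.06 ± 0.24, adjusted p = 0.00111). Clu (clusterin), a secreted chaperone, was among the abundant stomach genes, at 713 and 93.6 FPKM in the forestomach, 578 and 721 in the hindstomach, 16.6 and 3.52 in the intestine and 9.81 and 9.62 in the colon (-5.39 ± 0.72, adjusted p = 0.00624). Aqp3, a water and glycerol channel, had 60.9 and 267 FPKM in the forestomach, 47.8 and 64.2 in the hindstomach, 6.62 and 6.81 in the intestine and 6.44 and 7.12 in the colon (-3.46 ± 0.45). In all, 635 of the 746 bowel genes and 213 of the 255 stomach genes belonged to none of the lists.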
